A study of Mus musculus with 16 samples.

Results

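Interferon-stimulated genes are the genes that cells switch on after interferon binds its receptors. A list of 37 of them was followed here through the liver RNA sequencing data of a mouse study of diet and carcinogen. The members were found as the rows whose gene symbol is on the list, and all 37 were present, each in 1 row, among 30463 genes. All 37 also had an adjusted p-value in the authors' deposited table, as did 16288 genes in all.

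The labels describe whole liver of C57BL/6N mice, wild type in genotype and 14 weeks old, in 4 groups of 4. Mice were injected at 2 weeks of age with vehicle or with DEN (diethylnitrosamine, a liver carcinogen that is activated in hepatocytes). At 6 weeks of age they either stayed on the control diet or changed to one labelled 60% high fat. The groups are vehicle on control diet (CD-Vehicle), DEN on control diet (CD-DEN), vehicle on high fat diet (HFD-Vehicle) and DEN on high fat diet (HFD-DEN).

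The authors' deposited table holds 1 comparison, in which each gene has its average of normalized counts, called here the mean normalized count, its log2 fold change with a standard error (SE), and raw and adjusted p-values. The sources used here do not name its sides, so a gene with a negative log2 fold change is called higher on the negative side, and one with a positive value higher on the positive side. The 16 columns of values per library carry codes that match no sample label. They were not analysed here, so no value per mouse is given, and whether single mice carried a shared interferon response was not tested. The error of every value below is the authors' SE, and the number of libraries behind it is likewise not given. Depth per library was not analysed here, and mean normalized counts add up to 20403653 across the genes of the authors' deposited table. In that table the hepatocyte markers stood among the most abundant genes, with Alb, the albumin gene, at a mean normalized count of 1079857, the highest of all, and none of the 13 hepatocyte markers below 12999.

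Interferons reach their target genes by a short route. Type I interferons act through the receptor chains Ifnar1 and Ifnar2 and the kinases Jak1 and Tyk2, and signalling through Stat2 and Irf9 then leads to binding of the interferon-stimulated response element (ISRE) in promoters. Interferon gamma acts through Ifngr1 and Ifngr2, and many of its target promoters hold the gamma-activated sequence (GAS). The targets include proteins that detect viral RNA, block viral replication, present antigen and recruit T cells, and in liver both hepatocytes and resident macrophages can express them.

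To show what ties the members together at the level of sequence, promoter windows from RefSeq (build GRCm38.p6) were searched on both strands for the ISRE core, GAAA and GAAA with any 2 bases between, and the GAS core, TTCNNNGAA with N for any base. A window runs from 250 bases before the start of a transcript to 50 bases after it, and a gene can have several. Windows were matched by symbol for 29 of the 37 members. Gbp6, Iigp1, Mx1, Mx2, Oas2, Parp14, Rtp4 and Usp18 had no entry. The ISRE core was found for 16 of the 29 members (55.2%), against 3.99% of the 27025 genes with a window and 3.44% of the 32851 windows. The GAS core was found for 8 of the 29 (27.6%), against 9.55% of genes and 8.30% of windows. Both cores were found for 4 members (Bst2, Gbp7, Igtp and Oas1a) and neither for 9, among them Irf7. In 7 windows the ISRE core matched more than once, and in some of them the matches overlapped each other. A match is a run of letters, not a bound site.

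The first 4 stretches of 30 bases below belong to the members with the smallest p-values among those that hold a match. The other 6 were chosen after their values were seen, to show overlapping ISRE cores (Isg15, Oas1a, Irgm1), separate ones (Ifit1), a GAS core that overlaps ISRE cores (Bst2) and a GAS core alone (Irf1). Each is given 5′ to 3′ in the direction of the gene, with capitals for the matched core or cores, and positions count from the start of the transcript.
Ifi35 (GAS core from 8, chr11:101448409-101448438, plus strand): agaagcagaaTTCACAGAAatgaaagtgga
Ifih1 (ISRE core from 33, chr2:62646206-62646235, minus strand): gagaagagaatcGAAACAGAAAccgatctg
Cxcl10 (ISRE core from -213, chr5:92349083-92349112, minus strand): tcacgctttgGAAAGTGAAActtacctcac
Ddx58 (ISRE core from 3, on the opposite strand of the gene, chr4:40239804-40239833, minus strand): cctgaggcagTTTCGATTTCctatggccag
Isg15 (3 ISRE cores from -78, chr4:156200871-156200900, minus strand): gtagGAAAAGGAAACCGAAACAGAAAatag
Ifit1 (2 ISRE cores from -104, on the opposite strand of the gene, chr19:34640785-34640814, plus strand): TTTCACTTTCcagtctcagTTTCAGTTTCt
Oas1a (2 ISRE cores from -20, chr5:120907523-120907552, minus strand): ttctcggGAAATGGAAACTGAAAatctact
Irgm1 (2 ISRE cores from -30, chr11:48871428-48871457, minus strand): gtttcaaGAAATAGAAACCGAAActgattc
Bst2 (3 matches from -136, chr8:71537583-71537612, minus strand): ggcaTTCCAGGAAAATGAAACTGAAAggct
Irf1 (GAS core from -90, chr11:53769914-53769943, plus strand): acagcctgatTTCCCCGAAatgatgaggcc

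**Figure D1:**
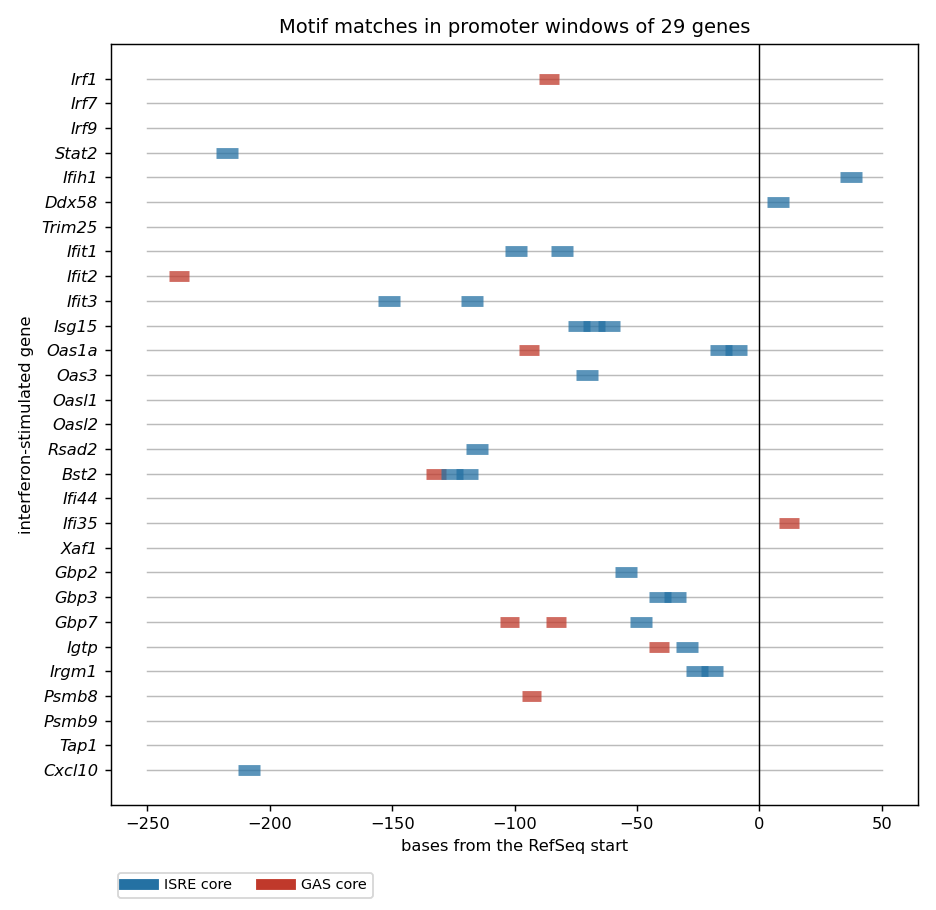
Positions of the ISRE core (blue) and GAS core (red) in the promoter windows of the 29 members with an entry, in bases from the RefSeq start, with all windows of a gene drawn on 1 line. Most ISRE matches lie before the start, and those of Ifih1 and Ddx58 lie after it, from bases 33 and 3.

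Of the interferon-stimulated genes 1 passed the test in the authors' comparison, and small estimates were about as frequent as over all tested genes. Of the 37 members, 1 had an adjusted p below 0.05 in the authors' deposited table, or 2.70%, and over all tested genes that share was 6.57%. That member, Irf7, was negative, and 2.90% of all tested genes were called with a negative sign. At an unadjusted p below 0.05 there were 5 members (13.5%), against 19.0% of all tested genes. The median log2 fold change of the members in the authors' deposited table was -0.12, beside -0.0044 over all tested genes. In sign, 25 members were negative and 12 positive (67.6% negative, against 50.8% of all tested genes). The point estimate was under 1.25-fold for 27 of the 37 members, or 73.0%, against 72.1% of all tested genes. The 95% interval lay within 2-fold in both directions for 27 members (73.0%, against 75.2% of all tested genes). It lay within 1.5-fold for 16 members (43.2%, against 51.3% of all tested genes). For the 10 members whose interval was not within 2-fold, a difference of 2-fold in at least 1 direction lay within it, and for Gbp2 in both. The shares called and at an unadjusted p below 0.05 were below those over all genes, the share under 1.25-fold was near it, and the share with a negative sign was above it.

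**Figure D2:**
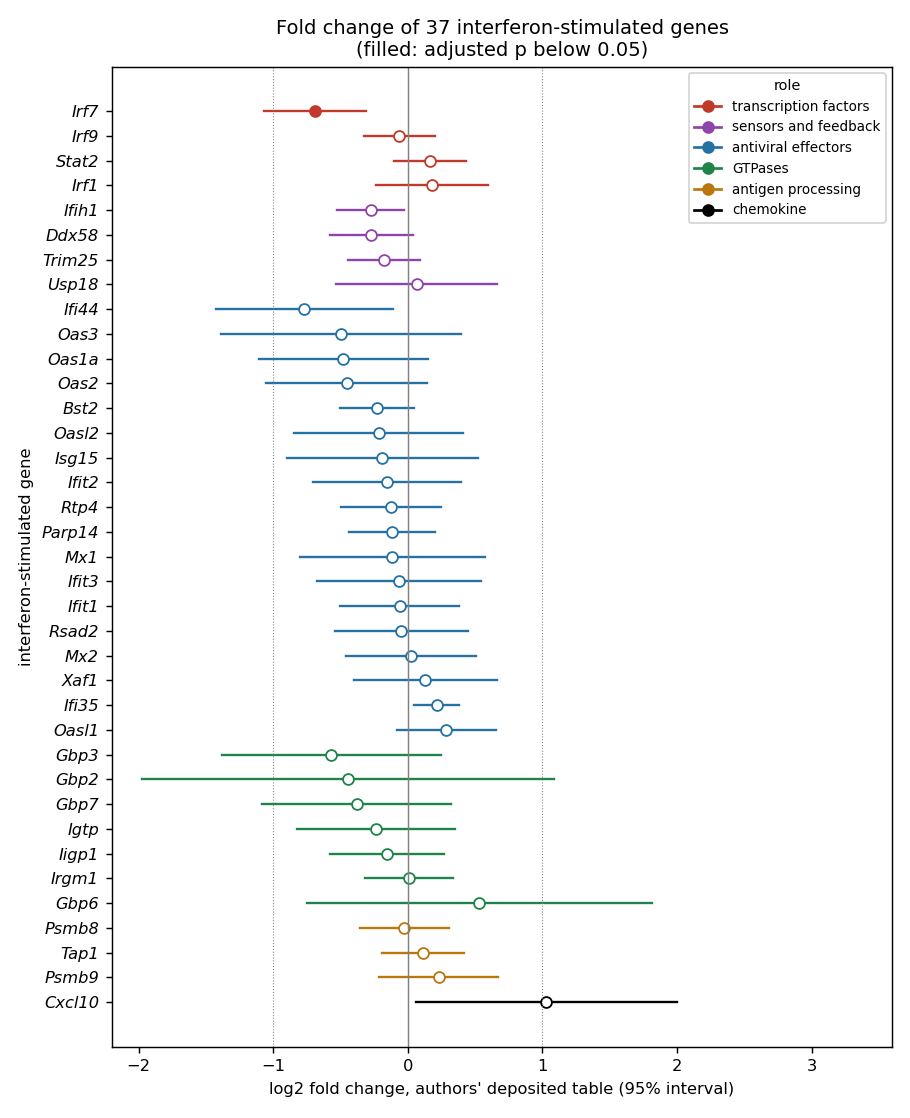
Log2 fold change of each of the 37 members in the authors' deposited table (points) with its 95% interval (lines), coloured by role, filled where the adjusted p was below 0.05. Irf7 at -0.69 is the only filled point, Cxcl10 at 1.03 lies farthest to the right, and the intervals of 32 members cross 0.

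Irf7 is the transcription factor that amplifies the type I interferon response, since it is itself induced by interferon and then drives interferon alpha genes. Its mean normalized count in the authors' deposited table was 959.8 and its log2 fold change was -0.69 ± 0.19 (SE), or 1.61-fold higher on the negative side, with a p of 0.000356 and an adjusted p of 0.0112. The 95% interval ran from -1.07 to -0.31. Irf7 (ENSMUSG00000025498) lies on the minus strand of chromosome 7 from 141262706 to 141266481 in GRCm38. Its exons share 45 bases (1.19% of their length) with those of Phrf1 on the opposite strand, which was at -0.11 ± 0.07 (log2 and SE) in the authors' deposited table. Computed from the p-values of the authors' deposited table, the call of Irf7 was lost at a threshold of 0.01, with the Holm adjustment (adjusted p = 1) and with all statistics scaled down (adjusted p = 0.412). The divisor was 1.44, the median absolute deviation of the statistics expressed as the standard deviation of a normal distribution.

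The other 3 transcription factors did not pass the test. Stat2 and Irf9, which take part in binding the ISRE, were at 0.16 ± 0.14 and -0.06 ± 0.13 (adjusted p = 0.570 and 0.862, log2 and SE) in the authors' deposited table. Irf1, which mediates much of the interferon gamma response, was at 0.18 ± 0.21 (adjusted p = 0.713, log2 and SE) in the authors' deposited table. The 95% intervals of Stat2, Irf9 and Irf1 lay within 2-fold. The interval of the difference between Irf7 and any of them could not be computed, since the covariance of the estimates is not given.

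The viral RNA sensor genes Ifih1 and Ddx58 were on the negative side in sign, with no call. Dhx58, a gene of nucleic acid sensing outside the member list, was at 0.25 ± 0.21 (adjusted p = 0.571, log2 and SE) in the authors' deposited table. Ifih1, which encodes the long double-stranded RNA sensor MDA5, had a mean normalized count of 767 and was at -0.28 ± 0.13 (p = 0.0288, adjusted p = 0.194, log2 and SE) in the authors' deposited table. Ddx58, which encodes the sensor RIG-I, was at -0.27 ± 0.16, and Trim25, a ubiquitin ligase that acts on RIG-I, at -0.18 ± 0.14 (adjusted p = 0.343 and 0.522, log2 and SE) in the authors' deposited table. Usp18, which removes Isg15 from proteins and damps receptor signalling, was at 0.07 ± 0.30 (adjusted p = 0.940, log2 and SE) in the authors' deposited table.

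Of the 18 antiviral effectors, 0 were called in the authors' deposited table, against 6.57% of all tested genes. At an unadjusted p below 0.05 there were 2 effectors, against 19.0% of all tested genes. Negative in sign were 14, against 50.8% of all tested genes, and the median log2 fold change of the effectors was -0.12. The 2 effectors at an unadjusted p below 0.05 differed in sign. Ifi35, a protein that binds the signalling partner Nmi, had a mean normalized count of 427 and was at 0.21 ± 0.09 (p = 0.0118, adjusted p = 0.112, log2 and SE) in the authors' deposited table. Ifi44, a cytoplasmic protein of the antiviral response, had a mean normalized count of 96.3 and was at -0.77 ± 0.33 (p = 0.0215, adjusted p = 0.162, log2 and SE) in the authors' deposited table, the estimate farthest from 0 among the effectors.

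The 2'-5' oligoadenylate synthetases detect double-stranded RNA and make short oligoadenylates. Their 3 members on chromosome 5, which lie between 120730333 and 120907521 in GRCm38, had like estimates in the authors' deposited table, with Oas1a at -0.48 ± 0.32, Oas2 at -0.46 ± 0.31 and Oas3 at -0.50 ± 0.45 (adjusted p = 0.435, 0.439 and 0.611, log2 and SE). Their levels were low, at mean normalized counts of 60.2, 77.6 and 41.9. Of the related Oasl genes, Oasl1 is known to inhibit the translation of Irf7. They lay on both sides of 0, with Oasl1 at 0.29 ± 0.19 and Oasl2 at -0.22 ± 0.32 (adjusted p = 0.426 and 0.785, log2 and SE) in the authors' deposited table. Oas1a has close copies in the mouse genome, and its reads may be shared with them. Of the Oas1 genes outside the member list, Oas1g was at -0.62 ± 0.34, Oas1b at -0.02 ± 0.28 and Oas1c at -0.04 ± 0.33 in the authors' deposited table (adjusted p = 0.318, 0.982 and 0.971, log2 and SE). Their mean normalized counts were 20.5, 20.9 and 14.3.

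The Ifit genes encode proteins that bind foreign RNA and are among the most strongly induced targets of type I interferon. In the authors' deposited table Ifit1 was at -0.06 ± 0.23, Ifit2 at -0.16 ± 0.28 and Ifit3 at -0.07 ± 0.31 (adjusted p = 0.926, 0.832 and 0.943, log2 and SE). All 3 lie between 34550694 and 34650009 on chromosome 19 in GRCm38, and the reads of Ifit3 may be shared with its near copy Ifit3b. Isg15, a ubiquitin-like modifier, was at -0.19 ± 0.36, and Rsad2, which encodes the antiviral enzyme viperin, at -0.05 ± 0.25 (adjusted p = 0.843 and 0.950, log2 and SE) in the authors' deposited table. These 5 classical type I targets had 95% intervals within 2-fold.

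The Mx GTPases block viral nucleocapsids, and laboratory strains such as C57BL/6 carry defective copies of both genes. Mx1, with the lowest mean normalized count of the members (26.2), was at -0.12 ± 0.35 and Mx2 at 0.02 ± 0.25 (adjusted p = 0.907 and 0.975, log2 and SE) in the authors' deposited table. Bst2, which encodes tetherin and holds budding virus at the cell surface, had a mean normalized count of 1980.2 and was at -0.23 ± 0.14 (adjusted p = 0.380, log2 and SE) in the authors' deposited table. Xaf1, a gene of cell death control, was at 0.13 ± 0.27, the chaperone-like Rtp4 at -0.13 ± 0.19 and the ADP-ribosyltransferase Parp14 at -0.12 ± 0.16 (adjusted p = 0.859, 0.788 and 0.771, log2 and SE) in the authors' deposited table. The exons of Rtp4 share 296 bases (13.9% of their length) with Gm45338 on the same strand, which was at -0.10 ± 0.16 (log2 and SE) there.

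The guanylate-binding proteins and immunity-related GTPases take part in defence against intracellular pathogens and are typical targets of interferon gamma. Of the 7 members, 0 were called in the authors' deposited table, 0 had an unadjusted p below 0.05, 5 were negative in sign and the median log2 fold change was -0.24. Over all tested genes the shares were 6.57% called, 19.0% at an unadjusted p below 0.05 and 50.8% negative in sign. Gbp2, Gbp3 and Gbp7, which lie between 142530342 and 142638008 on chromosome 3 in GRCm38, were at -0.45 ± 0.78, -0.57 ± 0.42 and -0.38 ± 0.36 (adjusted p = 0.827, 0.491 and 0.625, log2 and SE) in the authors' deposited table. Gbp6 on chromosome 5 was at 0.53 ± 0.65 (adjusted p = 0.728, log2 and SE) in the authors' deposited table. Since Gbp copies resemble one another, their counts are uncertain where reads are shared. The exons of Gbp6 also share 1726 bases with Gm43302, annotated on the same strand. Those of Gbp7 share 637 bases (11.3% of their length) with the processed pseudogene Gm43802, also on the same strand.

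Among the immunity-related GTPases, Igtp was at -0.24 ± 0.30, Irgm1 at 0.01 ± 0.17 and Iigp1 at -0.16 ± 0.21 (adjusted p = 0.739, 0.988 and 0.767, log2 and SE) in the authors' deposited table. Igtp shares 162 exon bases with Irgm2 on the same strand. Iigp1 was the member with the highest mean normalized count, 7665, which is 31.1% of the sum over the members. Per kilobase of exon, the order of levels put Bst2 first at 2193 counts, Iigp1 next at 1316 and Igtp at 372, while Gbp6 at 10.6, Mx1 at 6.93 and Oas3 at 5.93 came last (mean normalized count per kilobase from the authors' deposited table and the GENCODE M21 exons).

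Genes of antigen processing lie side by side on chromosome 17 between 34181987 and 34201454 in GRCm38. Psmb8 and Psmb9 encode the inducible catalytic subunits of the immunoproteasome and Tap1 a chain of the peptide transporter, and Psmb9 and Tap1 are transcribed in opposite directions from a shared promoter. In the authors' deposited table Psmb8 was at -0.02 ± 0.17, Psmb9 at 0.23 ± 0.22 and Tap1 at 0.11 ± 0.16 (adjusted p = 0.962, 0.643 and 0.772, log2 and SE). The exons of Psmb9 and Tap1 overlap by 212 bases on opposite strands, and the sources used here do not say whether reads were counted by strand.

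Cxcl10, the chemokine that draws Cxcr3-bearing T cells, was the only member with an estimate of at least 2-fold, a size reached by 586 of the 16288 tested genes. It had a mean normalized count of 70.9 and was at 1.03 ± 0.49 (p = 0.0372, adjusted p = 0.224, log2 and SE) in the authors' deposited table, with a 95% interval from 0.06 to 2.00. It did not pass the test. Its exons share 133 bases with those of Art3 on the opposite strand, which was at -0.17 ± 0.32 (log2 and SE) in the authors' deposited table.

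**Figure D3:**
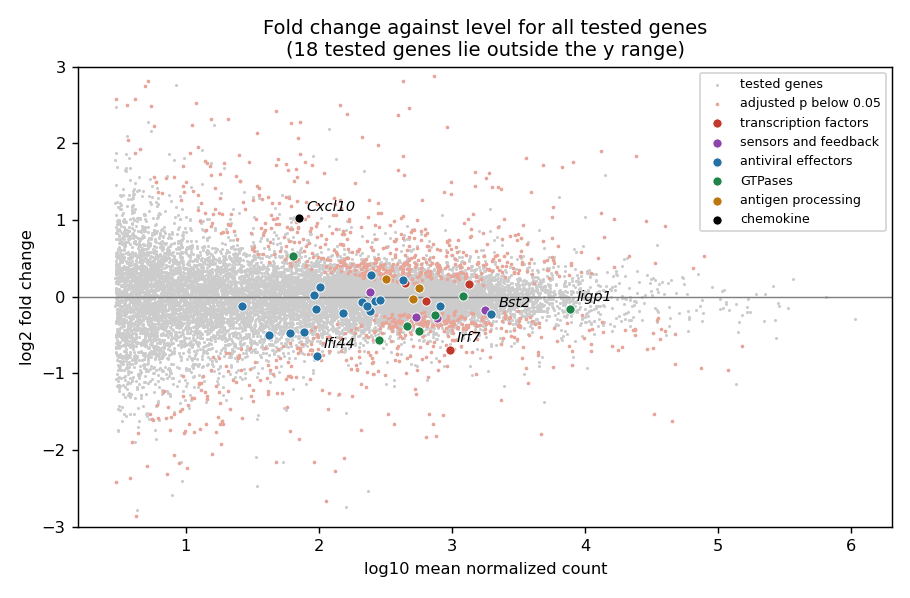
Log2 fold change against log10 mean normalized count for all tested genes in the authors' deposited table (grey, with pink for an adjusted p below 0.05) and for the members by role (large points). The members lie within the grey cloud at counts from 26.2 to 7665, with Irf7 at -0.69 the only one called, and Ifi44 at -0.77 and Cxcl10 at 1.03 farther from 0.

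No interferon receptor or gene of the JAK-STAT list passed the test. Of 21 interferon ligand genes searched for, 3 were matched (Ifng, Ifnk and Ifnz), with mean normalized counts of 0.429, 1.15 and 0.0441 in the authors' deposited table, which gives them no adjusted p. The receptor genes Ifnar1 at -0.09 ± 0.11, Ifnar2 at -0.09 ± 0.10, Ifngr1 at -0.07 ± 0.12 and Ifngr2 at 0.09 ± 0.14 (log2 and SE) had adjusted p from 0.676 to 0.815 there. For receptors 0 of 6 genes were called and for the JAK-STAT list 0 of 5, with 0 and 1 at an unadjusted p below 0.05. All 7 negative regulators, among them Socs1 and Socs3, were negative in sign, with 0 called, 2 at an unadjusted p below 0.05 and a median of -0.23 (log2, authors' deposited table). Of all tested genes 6.57% were called, 19.0% had an unadjusted p below 0.05 and 50.8% were negative in sign.

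Among 18 matched genes of nucleic acid sensing, 2 were called in the authors' deposited table, both negative, where 2.90% of all tested genes were called negative. In the authors' deposited table Tlr8 was at -0.95 ± 0.27 (adjusted p = 0.0116) and Tlr9 at -1.13 ± 0.35 (adjusted p = 0.0251, log2 and SE), both endosomal receptors for nucleic acids. Both were low, at mean normalized counts of 30.4 and 12.5 there. Of the other endosomal receptors in the list, Tlr7 was at -0.73 ± 0.32 and Tlr3, the most abundant of them at a mean normalized count of 124, at -0.07 ± 0.18 (adjusted p = 0.165 and 0.883, log2 and SE) in the authors' deposited table. The 6 interferon regulatory factors outside the member list had 0 called and 0 at an unadjusted p below 0.05, where the shares of all tested genes were 6.57% and 19.0%.

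Of 60 further interferon-induced genes, 1 was called in the authors' deposited table, and 43 were negative in sign, with a median log2 fold change of -0.13. The called gene was Ly6e, a membrane protein of the response to virus, with a mean normalized count of 4430.0 and a log2 fold change of -0.73 ± 0.23 (SE) and an adjusted p of 0.0346 in the authors' deposited table. For class I antigen presentation 0 of 16 genes were called, 0 had an unadjusted p below 0.05 and the median was -0.10. For class II 0 of 7 were called, 1 had an unadjusted p below 0.05, and all 7 were positive in sign with a median of 0.27 (log2, authors' deposited table). Over all pathway lists 3 of 125 tested genes were called, 13 had an unadjusted p below 0.05 and 86 (68.8%) were negative in sign. The shares of all tested genes were 6.57%, 19.0% and 50.8%. The total of 3 called fell to 1 with p-values adjusted over genes averaging 100 or more normalized counts, a set that Tlr8 and Tlr9 did not enter.

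**Figure D4:**
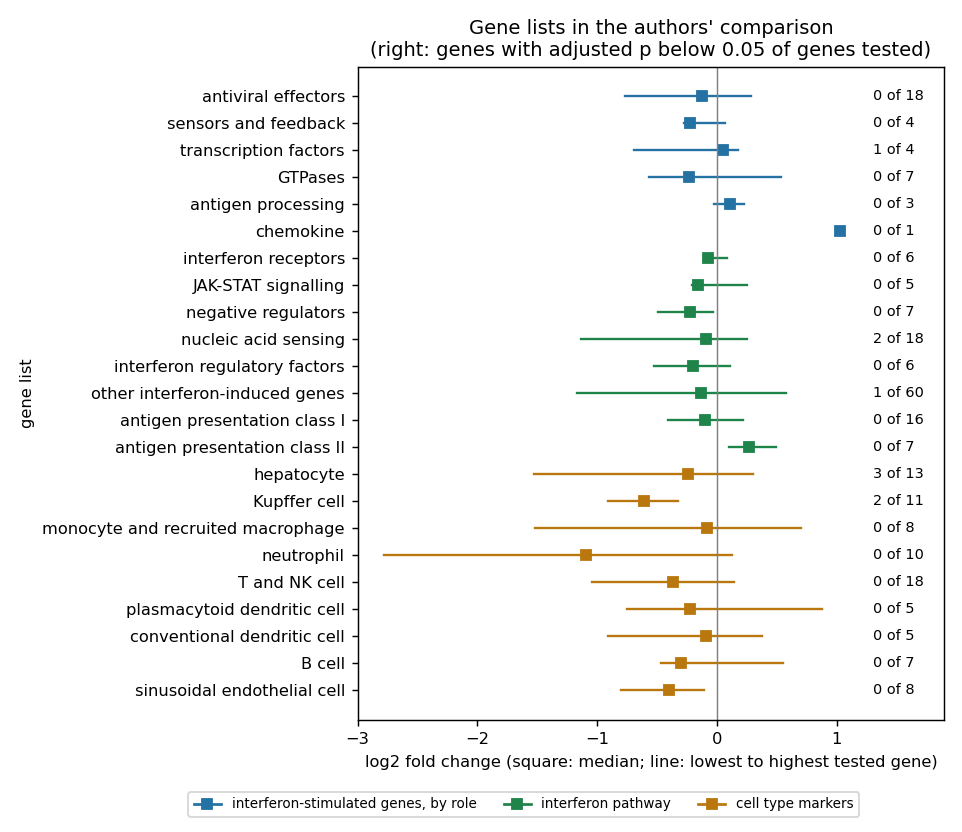
Median (square) and lowest to highest log2 fold change (line) of the tested genes of each list in the authors' deposited table, with called of tested genes at the right. Medians of the member groups lie from -0.24 to 1.03, the last being Cxcl10 alone, and the Kupffer cell list lies wholly below 0 with a median of -0.61.

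Markers of several other liver cell types had the same negative sign as Irf7, Tlr8 and Tlr9, most of them without a call. In whole liver, fewer cells of a type and less RNA per cell cannot be told apart. For the marker lists below, the shares over all tested genes were 6.57% called, 19.0% at an unadjusted p below 0.05 and 50.8% negative in sign. All 11 Kupffer cell markers were negative in sign in the authors' deposited table, from -0.91 to -0.33 with a median of -0.61, 8 had an unadjusted p below 0.05, and 2 were called, Fcna at -0.64 ± 0.19 and Timd4 at -0.76 ± 0.26 (log2 and SE). Their mean normalized counts summed to 11478, and the lowest was 242. All 8 sinusoidal endothelial markers were negative in sign with a median of -0.40, with 0 called and 2 at an unadjusted p below 0.05 (authors' deposited table).

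The 7 plasmacytoid dendritic cell markers include Bst2, a member, and had a median of -0.23 over 5 tested genes, with 0 called, 2 at an unadjusted p below 0.05 and 4 negative in sign (log2, authors' deposited table). Besides Bst2 the tested ones were Siglech at -0.75 ± 0.38, Ccr9 at -0.63 ± 0.31, Tcf4 at -0.0038 ± 0.097 and Ly6d at 0.88 ± 0.81 (log2 and SE) in the authors' deposited table, with mean normalized counts of 7.70, 11.0, 417 and 160.3. The median was -0.37 for markers of T and NK cells (0 of 18 called, 3 at an unadjusted p below 0.05), neutrophil markers -1.09 (0 of 10, 1), B cell markers -0.30 (0 of 7, 0), monocyte and recruited macrophage markers -0.08 (0 of 8, 0) and conventional dendritic cell markers -0.09 (0 of 5, 0), all as log2 fold changes in the authors' deposited table. Negative in sign were 15 of 18 for T and NK cells, 9 of 10 for neutrophils and 5 of 7 for B cells. For monocytes and recruited macrophages 4 of 8 were negative, and for conventional dendritic cells 3 of 5. No marker of these cell types was below a mean normalized count of 1. Of the 13 hepatocyte markers 5 had an unadjusted p below 0.05, against 19.0% of all tested genes. Called were 3 of the 13, all negative (Tat, Cps1 and Ahsg), where 2.90% of all tested genes were called negative. The median of the hepatocyte markers was -0.24, and 11 of the 13 were negative in sign. The part of these cells in the value of Irf7 was not tested.

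The members differed from most genes in the width of their errors, as did several of the other lists. SE varied with the count. The SE of each member was compared with the median SE of tested genes whose mean normalized count was within 1.25-fold of its own. It was above that median for 36 of 37 members in the authors' deposited table, with Ifi35 as the exception (ratio 0.747). The median ratio was 1.59, and 15 members lay above the 90th percentile of genes of like count. By construction, about as many genes lie above as below, and the share above was 49.8% over all tested genes. This comparison was chosen after the data were seen and is given without a test.

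Among the members, the widest errors for their level belonged to the Gbp genes. Gbp2 had an SE 7.13 times the median of genes of like count, a ratio that 0.0737% of tested genes exceeded, and Gbp3, Gbp7 and Gbp6 had ratios of 3.43, 3.17 and 3.16 in the authors' deposited table. Isg15 followed at 2.86, Igtp at 2.76 and Cxcl10 at 2.48. Irf7 had a ratio of 1.79, and the GTPases Irgm1 and Iigp1 had 1.53 and 1.45. Among upstream genes the median ratio was 1.02 for the interferon receptors, 1.05 for the JAK-STAT list, 1.20 for nucleic acid sensing, 1.33 for the negative regulators and 1.58 for the interferon regulatory factors outside the member list, while the 60 further interferon-induced genes had 1.48, with 49 above the median of genes of like count. For class I antigen presentation it was 1.15, with 10 of 16 genes above, and for class II 1.65, with 7 of 7 above. Markers of some other cells also had wide errors, with a median ratio of 4.40 for neutrophil, 2.20 for Kupffer cell, 2.12 for sinusoidal endothelial and 1.64 for monocyte and recruited macrophage markers (authors' deposited table). In these lists all 10, 11, 8 and 8 markers were above the median of genes of like count. For markers of T and NK cells, B cells, conventional dendritic cells, plasmacytoid dendritic cells and hepatocytes the median ratio was 1.00, 1.05, 1.11, 0.933 and 0.910. What the wide errors come from was not tested.

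**Figure D5:**
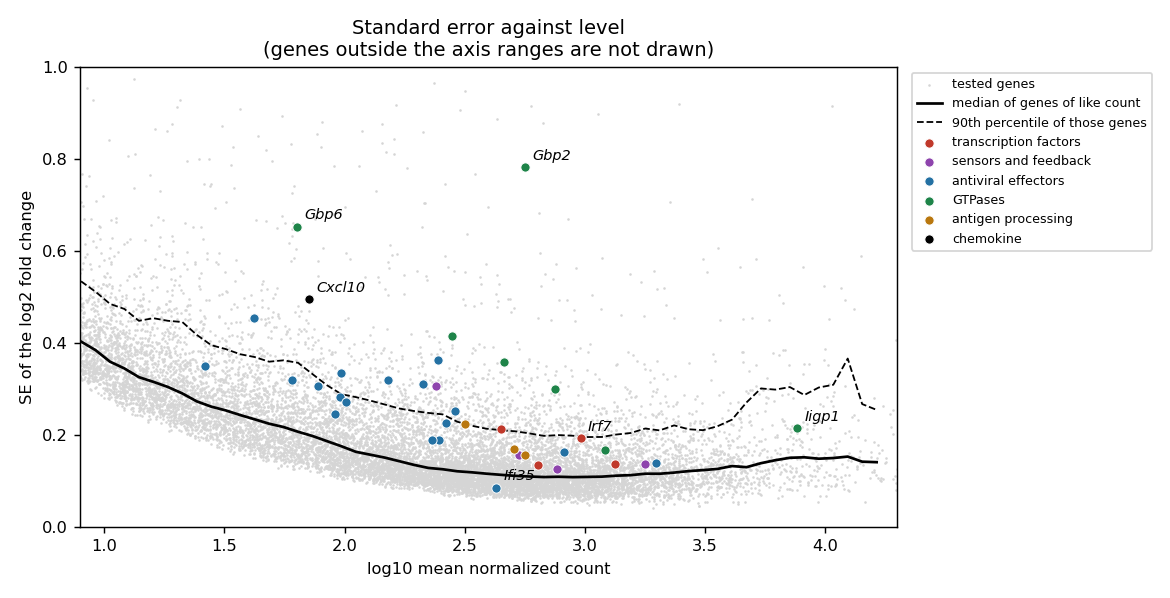
SE of the log2 fold change against log10 mean normalized count in the authors' deposited table for tested genes (grey) and members by role (coloured), with the median (solid line) and 90th percentile (dashed line) of genes of like count. All members but Ifi35 lie above the solid line, Gbp2 farthest at an SE of 0.78.

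Members with and without an ISRE core in their promoter window were set side by side. The 16 with the core had a median log2 fold change of -0.23, with 13 negative in sign, and the 13 with a window but no core had -0.02, with 7 negative (authors' deposited table). Irf7, the called member, is among those without. These are counts over few genes that share families and promoters, and no test was made. The comparison was not planned. It rests on a strict match of letters, and with a C required after the core 13 members held it.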

How the data were processed

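Per the labels' protocols, RNA came from frozen liver by Trizol and libraries from a stranded mRNA kit. The submitters' processing notes name HTSeq 0.11.1, HISAT2, Trimmomatic, FastQC and the build GRCm38, with no roles. Per the file headers, the authors' deposited table holds a signal, the mean normalized count over their libraries, their log2 fold change with its SE, their test statistic (a score), and their p-value with an adjusted p-value. Checked on the values, the statistic is the fold change over its SE, and adjusting the p-value by Benjamini-Hochberg over the 16288 genes that average 2.949 normalized counts or more returns the deposited one. The 16 columns headed by library codes match no sample label and were not used, so no test between groups was run, and depth per sample was not analysed here.

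Calls were made below an adjusted p of 0.05, and intervals are 95% normal intervals from the SE. Lists were described by counts and medians. All members were named. Of the pathway lists, called genes and the receptors Ifnar1, Ifnar2, Ifngr1 and Ifngr2 were to be named, with 1 further gene that is not reported here, and the other genes named were chosen after their values were seen. The members and lists were chosen with earlier results of these data known. Of 150 pathway symbols, 128 were matched, 125 of them with an adjusted p. Exon lengths and positions came from GENCODE M21 (GRCm38) and promoters from RefSeq. Steps were run in Python 3.11.15 with pandas 2.3.3 and scipy 1.17.1 and were tested on simulated data.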

Additional observations from a re-analysis of the deposited data

How the results depend on the processing

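From the p-values of the authors' deposited table, the 1 called member, Irf7, passed at a threshold of 0.10, with p-values adjusted over every gene (adjusted p = 0.0208) or over genes averaging 100 or more normalized counts (0.00866), and with a trend on the count removed (0.0116). In that order, the shares called of all genes in the adjustment were 9.75%, 2.52%, 9.09% and 6.46%. At a threshold of 0.01, with the Holm adjustment and with the scaled statistic, 0 members were called, beside 5 at an unadjusted p below 0.05, and the shares of all tested genes were then 3.01%, 1.14% and 0.872%. No other member was called under any of these 7 alternatives. The median member log2 fold change of -0.12 was -0.09 over the 28 members averaging 100 or more, and the mean weighted by the inverse squared SE was -0.06. The 3 called pathway genes became 6 at a threshold of 0.10 and 1 over genes averaging 100 or more. The 5 called cell type markers became 8 at 0.10. Of all genes, 9.75% were called at 0.10 and 9.09% over those averaging 100 or more. With a C required after the ISRE core, 13 members held it (44.8% of those with a window, against 0.944% of genes). With the longer TTCCNGGAA, 3 held the GAS core in place of 8 (10.3%, against 1.35% of genes). Within the 250 bases before the start the counts were 14 and 7 (48.3% and 24.1%, against 3.46% and 8.13% of genes). An SE above the median of genes of like count was found for 36 members also with like counts taken within 1.5-fold and within 2-fold, with a median ratio of 1.60 for both, alternatives chosen after the data were seen. No paired analysis was possible because the library columns match no sample label and were not used. For the same reason no library was left out in turn. Low counts limit Mx1, the Oas genes, Tlr8 and Tlr9.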
